A study of Mus musculus with 6 samples.

Results

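Chromosome 7 of the mouse carried 549 of the 6602 anti-GFP CUT&RUN peaks that mark KLF2 in large cavity macrophages (LCMs), chosen as every peak that the list places on this chromosome. CUT&RUN is an assay in which an antibody tethers a nuclease to its target in permeabilized cells, and the DNA released by the cut is sequenced. The cells were LCMs (CD11b+ F4/80+ MHCII- DNAM-1-) sorted from the peritoneal cavity of GFP-KLF2 knock-in mice, which carry eGFP at the N terminus of KLF2 at its own locus, so that the fusion is made wherever the endogenous gene is active. Cells of 3 individual mice were each split between the anti-GFP antibody (Abcam, clone 290) and rabbit IgG (Sigma), both at 50 µg/ml, which gave 3 anti-GFP and 3 IgG libraries of the same genotype. The study used young adult mice of both sexes, and the labels give neither the age nor the sex behind a library. The nuclease fusion was added at 700 ng/ml, digestion ran for 2 h in 1.3 mM CaCl2, and the labels give a sequencing depth of 3 to 5 M. The list joins the libraries and holds positions only, so no peak has a height, a depth or a spread between mice, and the sorted cell type could not be checked in it. All comparisons below are therefore descriptions, and no test was made, because stretches of a chromosome are not replicates of a condition.

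KLF2 is a zinc finger transcription factor that binds GC-rich and CACCC-type sequences, often at promoters, and the study asked which genes it binds in LCMs. Chromosome 7 suits a look at where listed peaks are few, because dense blocks of broadly used genes alternate on it with large families used in few cell types. Olfactory receptors are odorant receptors of sensory neurons in the nose, and vomeronasal receptors detect pheromones in the vomeronasal organ. Both families lie in long tandem arrays that are mostly silent in other cell types, and their expression in LCMs was not measured here. Of the 2023 protein-coding genes of the chromosome, 244 were olfactory and 154 vomeronasal receptor genes. These 398 receptor genes (19.7% of its protein-coding genes) were the most of any autosome, ahead of 294 on chromosome 2.

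Gene positions came from an annotation of the older build GRCm38, while peaks are in GRCm39, so the 2 were compared only in bins. Bins of 2 Mb were counted from the first base, a peak was placed by its midpoint and a gene by its start. A bin is called receptor-rich where it holds 5 or more receptor genes and these make up at least 50% of its protein-coding genes, and other-gene where it holds 5 or more protein-coding genes with receptors under 10% of them. Bins between these limits are called mixed, and bins with fewer than 5 protein-coding genes gene-poor. No peak sequence or promoter is printed, since no sequence of the list's build was used here.

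Peaks were gathered in few places. Of the 73 bins, the median bin held 4 peaks (quartiles 1 and 8), and 14 bins (19.2%) held 0, against 24.5% of all 2 Mb bins on the autosomes. The first bin, which has no known sequence in GRCm38, is 1 of the 14. The 10 fullest bins carried 277 peaks, 50.5% of the chromosome's total. The 5 fullest carried 178 peaks (32.4%) and 441 protein-coding genes (21.8%).

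The fullest bin ran from 44 to 46 Mb and held 43 peaks and 116 protein-coding genes, the most genes of any bin. Among its genes are Spib and Irf3, which encode an ETS-family and an interferon-regulatory transcription factor, Fcgrt, the neonatal Fc receptor, and Cd37, a leukocyte tetraspanin. Its peaks stretched from 44009247 to 45572882 of GRCm39 with a median width of 342 bases, and 27 of them lay in the Mb from 44 to 45 against 16 in the next.

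The bin from 126 to 128 Mb followed with 38 peaks and 98 genes. It holds Coro1a, an actin-binding protein of leukocytes, Itgal, the alpha chain of the integrin LFA-1, and Pycard, the inflammasome adaptor ASC. Its first Mb carried 23 peaks and its second 15.

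From 24 to 26 Mb lay 35 peaks among 72 genes, which include Axl, a receptor tyrosine kinase for the clearance of dying cells, and Tgfb1, the cytokine TGF-beta1. All of these peaks began at or after 24099062, immediately beyond a stretch of 4.54 Mb without a peak. Here 21 peaks fell in the first Mb and 14 in the second.

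The mixed bin from 140 to 142 Mb held 33 peaks among 89 genes, with Irf7, the interferon-regulatory factor of the type I response, and the interferon-induced membrane protein genes Ifitm1, Ifitm2 and Ifitm3. It also holds 19 olfactory receptor genes, all of them in its first Mb, where 22 peaks and 30 genes of other kinds were placed as well. At this resolution, peaks beside receptor genes and peaks beside their neighbours in that Mb cannot be told apart.

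From 28 to 30 Mb lay 29 peaks among 66 genes, including Nfkbib, an inhibitor of NF-kappaB, and 24 of these peaks fell in the first Mb. The plot of peaks and genes in order along the chromosome shows these blocks.

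**Figure D1:**
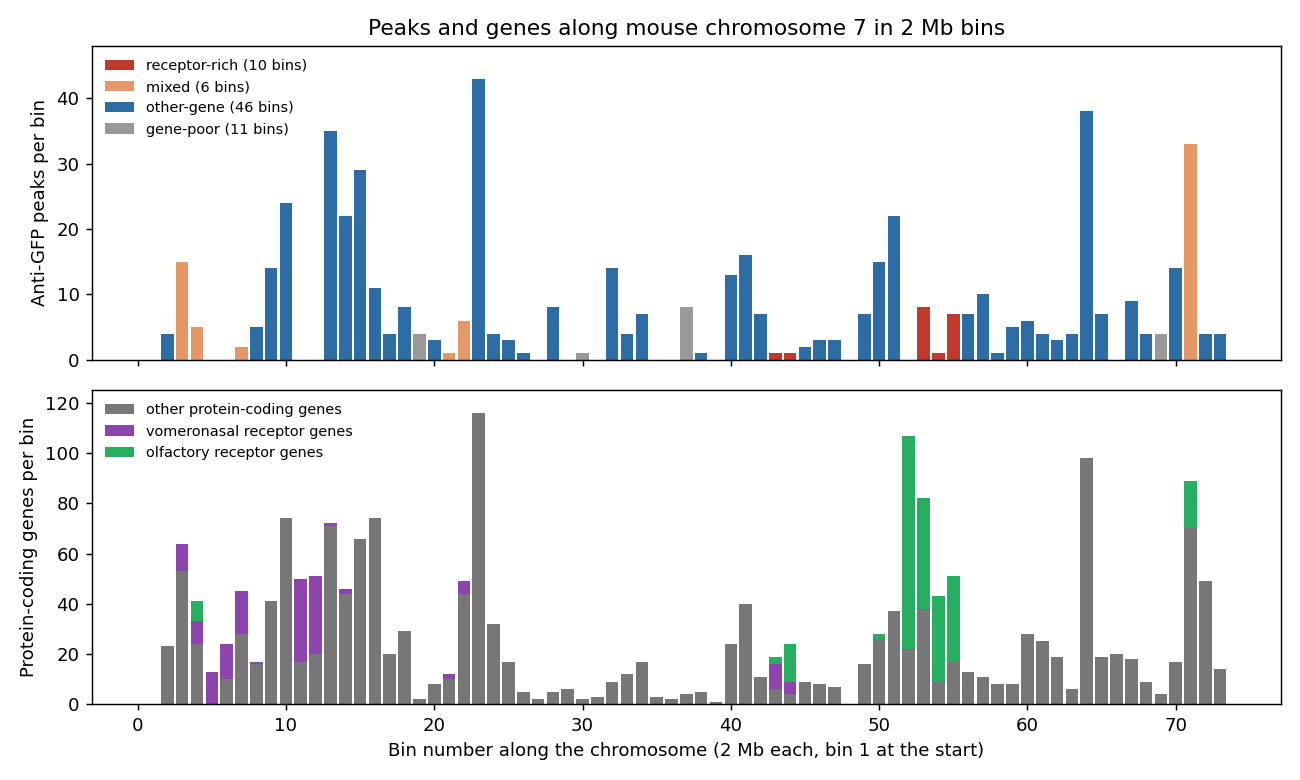
Anti-GFP peaks (upper bars, coloured by bin class) and protein-coding genes (lower bars, stacked by kind) in the 73 bins of 2 Mb along chromosome 7, with bin number on the x axis and counts on the y axes. The tallest upper bar reaches 43 peaks over a bin of 116 genes, while the tallest olfactory block, 85 olfactory genes in a bin of 107, has 0 peaks above it.

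Receptor-rich bins held few peaks. In the 10 such bins, which together carry 464 protein-coding genes and 321 receptor genes, there were 18 peaks, or 3.88 peaks per 100 protein-coding genes. The 46 other-gene bins held 452 peaks among 1236 genes, or 36.6 per 100, which is 9.43 times as many. Receptor-rich bins thus contained 22.9% of the protein-coding genes and 3.28% of the peaks. The median was 0.5 peaks in a receptor-rich bin (range 0 to 8) and 6.5 in an other-gene bin (range 0 to 43). The ranges overlapped, and 16 of the 46 other-gene bins (34.8%) exceeded the fullest receptor-rich bin. Of the receptor-rich bins, 5 of 10 held 0 peaks, against 26.3% of the receptor-rich bins on other autosomes. Of the other-gene bins, 2 of 46 held 0, against 10.5% of other-gene bins over all autosomes. Receptor-rich bins were not poorer in genes, as their median was 46.5 protein-coding genes, against 17.5 in other-gene bins. Among the 30 other-gene bins with at least 13 genes, the fewest in any receptor-rich bin, there were 34.4 peaks per 100 genes and 1 bin with 0.

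The receptor-rich vomeronasal bins near the start of the chromosome were empty, but mixed bins with vomeronasal genes there were not. The mixed bin from 12 to 14 Mb held 17 vomeronasal receptors among 45 genes and 2 peaks. That from 4 to 6 Mb held 11 among 64 and 15 peaks, and that from 6 to 8 Mb 9 among 41 and 5 peaks. From 8 to 10 Mb all 13 protein-coding genes were vomeronasal receptors, and from 10 to 12 Mb 14 of 24 were, the others including the Zscan4 genes of early embryos and Nlrp4b. Both bins held 0 peaks, and in the list's own coordinates the stretch without a peak ran from 7302040 to 12552397, a length of 5.25 Mb. From 20 to 24 Mb lay 64 vomeronasal receptor genes among 101 protein-coding genes, again with 0 peaks. Of the 37 other genes in these 4 Mb, 35 bear provisional Gm symbols, and the named ones were Nlrp4e and Nlrp5, genes of the oocyte.

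Further along, the bins from 84 to 86 and from 86 to 88 Mb held 13 receptors among 19 genes and 20 among 24, of both families. Each held 1 peak, at 84338857 to 84339080 and at 87926676 to 87927021, and the 3.59 Mb between these peaks were free of others. The first peak lay in a Mb with 4 receptors among 10 genes and the second in a Mb with 3 genes, of which 0 were receptors.

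The olfactory block from 102 to 110 Mb was the largest, with 197 olfactory receptor genes in 4 consecutive bins. Its first bin held 85 olfactory receptors among 107 genes and 0 peaks. Its second held 44 among 82 and 8 peaks, all of them from 105230339 to 105850828. The next held 34 among 43 and 1 peak, from 106250755 to 106251179. The last held 34 among 51 and 7 peaks, from 109559032 to 109779744. Before the first of these peaks lay 3.31 Mb without a peak, and another 3.31 Mb without a peak separated the peak at 106250755 from the one at 109559032. The beta-globin genes, 5 red cell genes embedded among the olfactory receptors, all lay in the empty bin.

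Within the receptor-rich bins, peaks fell mainly where receptors were fewer. When the 10 bins were divided into 20 stretches of 1 Mb, 14 stretches had receptors as at least 50% of their genes and together held 361 genes and 1 peak. The other 6 stretches held 103 genes, of which 39 were receptors, and 17 peaks. All 7 peaks of the bin from 108 to 110 Mb were in its second Mb, which holds 14 protein-coding genes and 0 receptors. The Mb before it held 34 receptors among 37 genes and 0 peaks. All 8 peaks of the bin from 104 to 106 Mb lay in the Mb from 105 to 106, with 17 receptors among 37 genes. At 45.9% this stretch is close under the limit of 50%. The split of 1 against 17 peaks therefore depends on where that limit is set. Trim5, Trim6 and Trim30a, of a family of antiviral proteins in the same bin, lay in the stretch without a peak before 105230339, also when 0.5 Mb was left out at each end of it. At 1 Mb, the difference between the builds can carry a gene into the next stretch, so these counts are less firm than those at 2 Mb.

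Counted against the non-receptor genes alone, receptor-rich bins still held fewer peaks. There were 12.6 peaks per 100 non-receptor genes, against 36.7 in other-gene bins. Without genes of Gm symbols, which were numerous in the vomeronasal blocks, the values were 17.3 and 38.2. The peaks of receptor-rich bins were also narrower at the median, with 287.5 bases (n = 18) against 328.5 bases in other-gene bins (n = 452), but the quartiles of 243 to 405 and 250 to 453 bases overlapped over most of their length.

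Receptor-rich bins held fewer peaks per 100 genes elsewhere in the genome as well. On the other autosomes, 19 receptor-rich bins on 8 chromosomes held 56 peaks among 912 protein-coding genes, or 6.14 per 100, against 33.7 per 100 in their 842 other-gene bins. Per 100 non-receptor genes the values were 22.8 and 33.8, closer together than the 12.6 and 36.7 of chromosome 7. The medians were 2 and 4 peaks a bin. On 7 of these 8 chromosomes the receptor-rich bins held fewer peaks per 100 genes than the other-gene bins of the same chromosome. The exception was chromosome 3, whose single receptor-rich bin has 12 genes and held 5 peaks. On the other 7 the values ran from 1.72 per 100 on chromosome 9 to 11.5 on chromosome 17, and chromosome 2, the next richest in receptors, gave 2.75 in 5 bins. The plot of peaks per bin by class sets chromosome 7 beside the other autosomes.

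**Figure D2:**
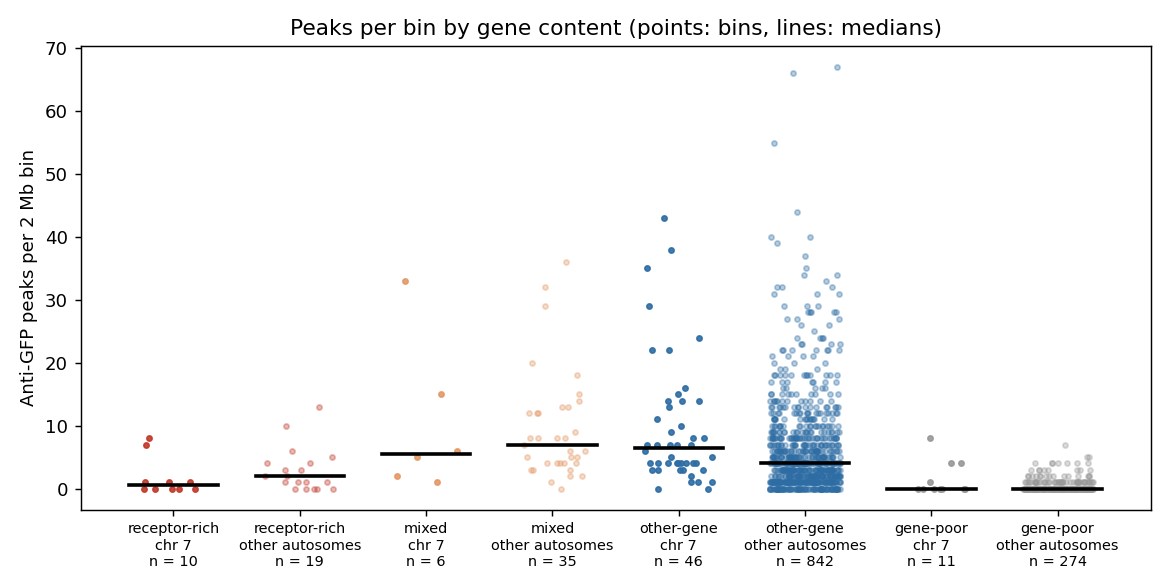
Anti-GFP peaks in each 2 Mb bin (points) by gene content, for chromosome 7 and for the other 18 autosomes, with medians as lines and the number of bins under each column. On chromosome 7 the receptor-rich bins lie between 0 and 8 peaks and the other-gene bins between 0 and 43.

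Base composition and repeated sequence differed between the classes as well. In GRCm38, receptor-rich bins had 4.66 to 7.58 CpG dinucleotides per kb (median 6.47), and other-gene bins 5.73 to 16.0 (median 9.38). Across the 71 whole bins with known sequence, peaks per bin rose with CpG density (Pearson's r = 0.77, Spearman's rho = 0.72) and with GC content (r = 0.70, rho = 0.73). Such values describe bins of 1 chromosome, which are not independent and in which genes and CpG go together. In the 11 other-gene bins with a CpG density no higher than the highest of the receptor-rich bins, there were 44 peaks among 102 genes, or 43.1 per 100, with a median of 3 peaks a bin. These bins had few genes, with a median of 8 against 46.5 in receptor-rich bins, and 22 of the 44 peaks came from the bins at 54 to 56 and 62 to 64 Mb. Without these 2 bins, a choice made after seeing the data, there were 22 peaks among 88 genes, or 25 per 100.

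Repeated sequence was measured as the share of 50-base stretches, sampled every 1000 bases, that occur more than once in the GRCm38 chromosomes. It was 10.9% to 92.1% in receptor-rich bins (median 23.5%) and 2.68% to 63.9% in other-gene bins (median 6.70%). Reads from such sequence may not be placed uniquely, and how the authors treated them is not given in the sources used here. The 4 empty vomeronasal bins were at 92.1% (8 to 10 Mb), 91.7% (20 to 22 Mb), 73.4% (22 to 24 Mb) and 37.5% (10 to 12 Mb). The first 3 of these values exceed that of every other-gene bin, and in all 4 bins lack of binding and lack of uniquely placed reads cannot be told apart. The 4 receptor-rich bins with a repeated share under 15% held 9 peaks among 201 genes, or 4.48 per 100. These include the bin from 102 to 104 Mb, with 85 olfactory receptors, a share of 14.6% and 0 peaks. Receptors are counted among the 201 genes, which lowers this ratio. Of the 9 peaks, 7 lay in the Mb from 109 to 110, which holds 14 genes and 0 receptors. The 13 other-gene bins with a repeated share at or above the lowest of the receptor-rich bins held 32.4 peaks per 100 genes.

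**Figure D3:**
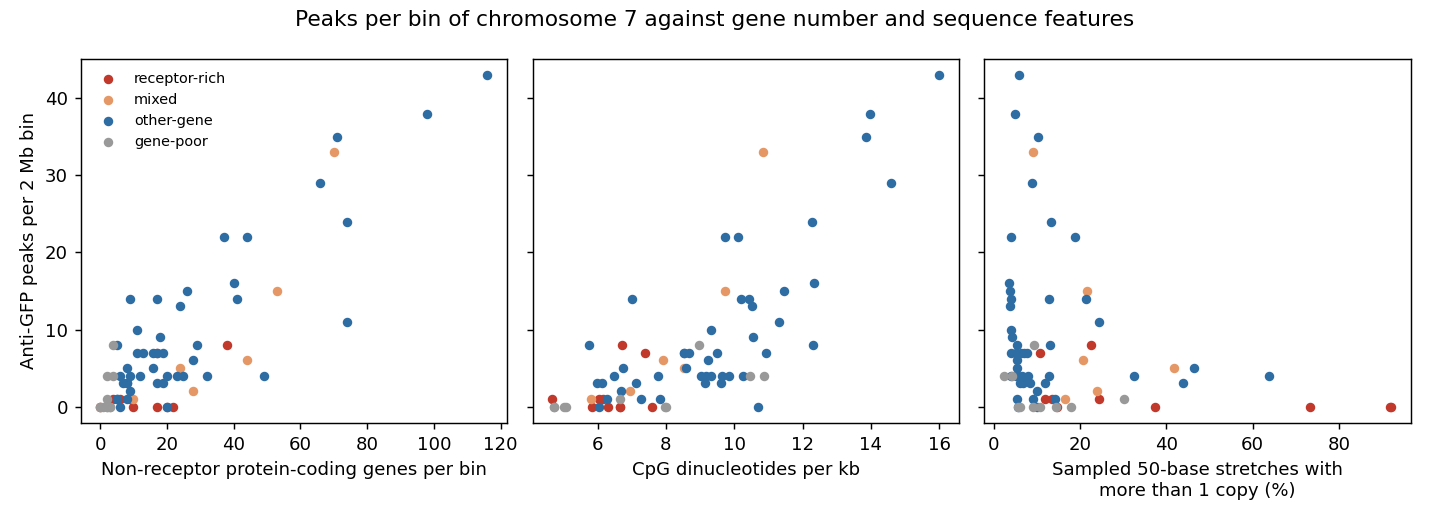
Anti-GFP peaks per 2 Mb bin of chromosome 7 (y axis) against non-receptor protein-coding genes, CpG dinucleotides per kb and the percentage of sampled 50-base stretches with more than 1 copy (x axes), with a point for each whole bin coloured by class. Peaks rise with non-receptor genes (r = 0.86) and with CpG density (r = 0.77), and the receptor-rich bins stay at or below 8 peaks in all panels.

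Peaks followed gene number once receptors were set aside. Across the 72 whole bins, peaks per bin correlated with non-receptor protein-coding genes at r = 0.86 and rho = 0.69, and with all protein-coding genes at r = 0.67 and rho = 0.51. Without the 2 bins farthest from the median number of genes, the values of r were 0.78 and 0.70. With the number of receptor genes r was -0.14. For the whole chromosome, there were 27.1 peaks per 100 protein-coding genes, which placed it 15th of 19 autosomes. Per 100 non-receptor genes there were 33.8, which placed it 9th, with 25.1 to 45.9 on the other autosomes. Chromosome 11, the only autosome with more peaks (594), had 82 receptor genes and no receptor-rich bin, and carried 36.2 peaks per 100 protein-coding genes and 38.2 per 100 non-receptor genes. In other-gene bins alone the 2 chromosomes lay close, with 36.6 peaks per 100 genes on chromosome 7 and 37.7 on chromosome 11.

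Gene families of the chromosome lay in bins of very different fullness. The value given here for a gene is the number of peaks in the 2 Mb bin that holds it, which says nothing of which gene a peak belongs to. Its median over all 2023 protein-coding genes was 8, and over the 1625 that are not receptors 11. It was 1 for olfactory receptors, of which 85 of 244 (34.8%) were in empty bins, and 0 for vomeronasal receptors, of which 91 of 154 (59.1%) were. Over non-receptor genes, 6.52% were in empty bins.

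Other tandem families lay on both sides of these medians. The 92 Zfp genes, many of which encode KRAB zinc finger repressors, had a median of 19, and 0 of them were in an empty bin. The 28 genes of the Ceacam and Psg families, cell-surface and placental glycoproteins, had a median of 24, but 16 of them share the bin from 18 to 20 Mb. Psg29, Ceacam5, Ceacam11, Ceacam12, Ceacam13 and Ceacam14 lie in a stretch of 2.17 Mb without a peak, from 16658475 to 18827860. They do so also when 0.5 Mb is left out at each end, so the median overstates the peaks near these genes. The 15 Cyp2 genes, cytochromes P450 of drug and steroid metabolism, had a median of 22, since 11 of them share the bin from 26 to 28 Mb. The 26 kallikreins, secreted proteases, were divided between a bin of 6 peaks (16 genes) and the fullest bin of 43 (10 genes). The 19 Mas-related receptors, sensory receptors of itch and pain neurons and of mast cells, had a median of 4 with a range of 3 to 4. The 4 serum amyloid A genes, of acute-phase proteins, and the 5 keratin-associated genes, of hair, had medians of 4 as well, and the latter had 33 when moved by 0.5 Mb. The 16 Trim genes had a median of 8, which fell to 0 when they were moved. The 5 beta-globin genes were in an empty bin in both placements, but they share 1 bin and so give a single value. The same bin holds all 85 olfactory receptors counted in empty bins. The 13 Nlrp genes ran from 0 to 33. With gene positions moved by that distance, the median was 15 for Zfp genes, 19 for Ceacam and Psg genes and 22 for Cyp2 genes, while those of the receptor families stayed at 1 and 0.

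Of the 43 myeloid and macrophage genes listed for this chromosome 42 were found, and of these 27 (64.3%) were in bins of 10 or more peaks, against 53.6% of non-receptor genes, and their median was 13.5. When gene positions were moved by 0.5 Mb this median became 26.5 and 14 of the 42 changed bins, so it is not firm at this resolution. Apoe, the lipid carrier of macrophages, Bcl3 and Relb, regulators of NF-kappaB, share the bin from 18 to 20 Mb with 24 peaks, and stay in it when moved. Cebpa, a transcription factor of myeloid development, and Cebpg share a bin of 8 peaks. Cd33, Siglece and Siglecf, sialic acid-binding receptors of myeloid cells, share a bin of 6, and Il4ra, a receptor chain for IL-4, lies in a bin of 4. Itgam, which encodes the CD11b used to sort these cells, is in a bin of 7 peaks as annotated and in the bin of 38 when moved, so no count can be set beside it. Tyrobp, the adaptor DAP12, likewise changes from a bin of 11 to one of 29. Stim1 and Il18bp, 2 of the 42 (4.76%), were in an empty bin as annotated and in a bin of 22 when moved.

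The 26 imprinted genes found, which are expressed from the copy of 1 parent, had a median of 4. The cluster from 142 to 144 Mb holds 13 of them, among them Igf2, a fetal growth factor, Cdkn1c, a cell cycle inhibitor, and Kcnq1, a potassium channel, with 4 peaks in the bin. Peg3, Usp29 and Zim1 lie in a bin of 5. Snrpn and Snurf lie in an empty bin as annotated and in a bin with 1 peak when moved, and Ube3a and Atp10a in a bin with 1 peak. Magel2, Ndn, Mkrn3 and Peg12 lie in a bin of 14 as annotated, but all 14 peaks begin at or after 63547203, and these genes fall in the stretch of 4.13 Mb without a peak before it, also when 0.5 Mb is left out at each end.

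**Figure D4:**
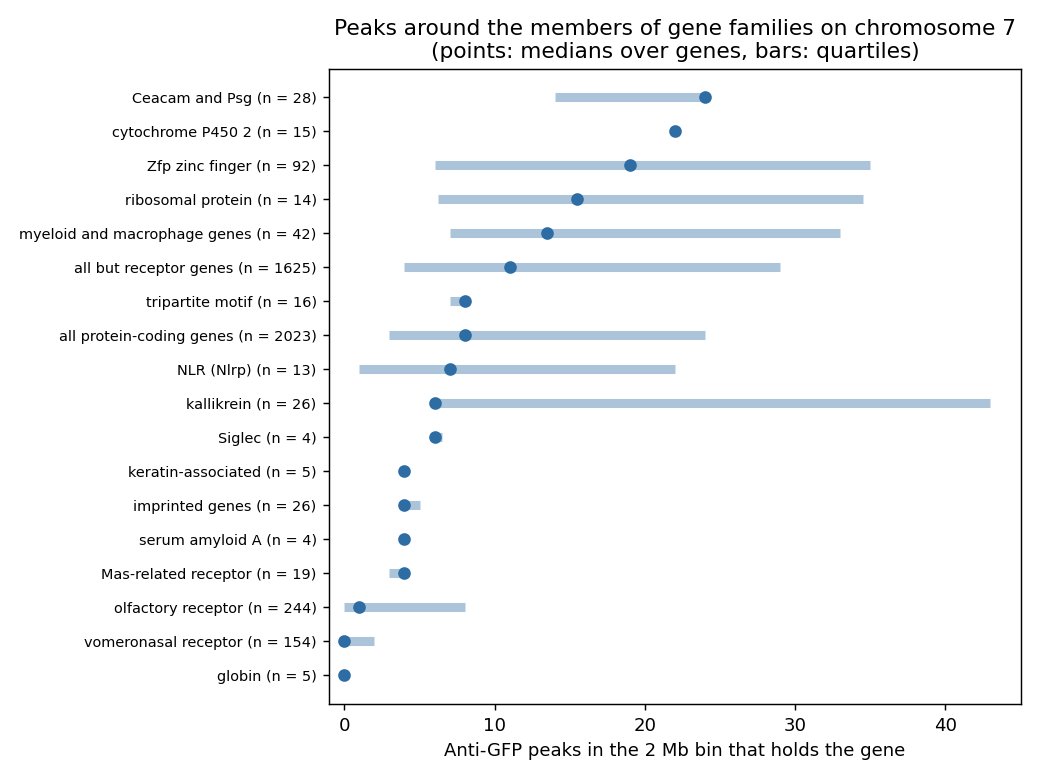
Number of anti-GFP peaks in the 2 Mb bin that holds each gene (x axis) for gene families and lists of chromosome 7 (y axis, number of genes in parentheses), with points for medians over genes and bars for quartiles. Vomeronasal and olfactory receptors and the 5 beta-globin genes are at 0 to 1, below the 11 of all non-receptor genes, while Zfp genes are at 19.

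Stretches without peaks were of more than a single kind. In the list's own coordinates, 22 stretches of at least 2 Mb held no peak, and they added up to 73.9 Mb. Leaving out 0.5 Mb at each end for the difference between the builds, they contained 285 of the 398 receptor genes (71.6%) and 184 of the 1625 other protein-coding genes (11.3%). The longest ran from 67601466 to 73175329, 5.57 Mb in which 0 of 6 genes were receptors, among them Nr2f2, a nuclear receptor of vessels and mesenchyme, and Arrdc4. The stretch from 30851466 to 33600196 held 14 genes inside these limits, all of them androgen-binding Scgb genes of secretory glands. The stretch from 128346755 to 132212634 held 21 genes inside these limits, of which 0 were receptors. They include Htra1, a secreted protease, and Bub3, of the mitotic checkpoint, and the bin from 130 to 132 Mb was 1 of the 2 other-gene bins with 0 peaks.

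In width the peaks of chromosome 7 lay within the range of other autosomes. Their median width was 325 bases (quartiles 247 and 454, range 143 to 1677), against medians of 303.5 to 346 bases on the others. They covered 213906 bases. From a peak to the next, the gap was under 10 kb in 28.6% of cases (14.9% to 33.8% on other autosomes) and under 500 bases in 11.3% (6.08% to 16.1%). The median gap was shorter than on most autosomes, at 34133 bases against a median of 65159 over the others, and only chromosome 19 had a shorter one (28259). Widths over 1000 bases were found for 14 peaks (2.55%), of which 13 lay in other-gene bins, 1 in a gene-poor bin, and 0 in receptor-rich or mixed bins. Of all peaks on the chromosome, 82.3% lay in other-gene bins, 11.3% in mixed, 3.28% in receptor-rich and 3.1% in gene-poor bins. With so few wide peaks, this split does not set the classes apart.

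The widest were a pair of 1677 bases each, from 63586404 to 63588080 and from 83532170 to 83533846, which share the 8th place in the whole list. They were followed by a peak of 1256 bases from 44503443 to 44504698, in the fullest bin, and by peaks of 1236 bases from 16018825 to 16020060 and 1216 bases from 30850250 to 30851465. The next 5 were between 1190 and 1076 bases wide, and the 11th was 1038. The 7th, of 1177 bases from 51655043 to 51656219, stood alone, with 3.12 Mb free of peaks before it and 3.84 Mb after it. The 5th, too, was the last peak before a stretch of 2.75 Mb without any.

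The tightest runs of 5 neighbouring peaks lay in 3 places. The tightest spanned 9183 bases, from 63554800 to 63563982, with widths of 360, 613, 249, 911 and 303 bases. The next spanned 9480 bases from 28072141 to 28081620, with widths between 147 and 595 bases. Another spanned 17811 bases from 27172827 to 27190637, with widths between 228 and 453 bases. Over all 545 runs of 5 peaks the median span was 301177 bases, and 44 (8.07%) were under 50 kb. The rule of the shortest runs and widest peaks used positions alone, so these values describe the list and test nothing.

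Both the tightest run and a peak of the greatest width belong to the bin from 62 to 64 Mb. All 14 of its peaks lay within 182 kb, from 63547203 to 63728837, with a median width of 392.5 bases, and a stretch of 4.13 Mb without a peak ended at the first of them. The bin has 9 protein-coding genes, including Klf13, which encodes another member of the KLF family and stays in the bin when gene positions are moved by 0.5 Mb. Otud7a, a deubiquitinase, and Chrna7, a nicotinic receptor subunit, are further genes of the bin.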

How the data were processed

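CUT&RUN libraries came from 3 anti-GFP and 3 IgG samples. The authors trimmed reads with Trim Galore 0.6.7, aligned them to GRCm39 with Bowtie2 2.4.2, scaled by E. coli spike-in reads and called peaks with SEACR 1.3 against merged controls, reporting the top 1%. The deposited list holds peak starts and ends in bases, and nothing on peak height or reads, so depth per peak and replicate error are unknown. The number of unused columns of per-sample values was 0. That the list is in GRCm39 follows from peaks beyond the GRCm38 ends of chromosomes 8, 13 and 17.

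Protein-coding genes were taken from GENCODE M21 and sequence from RefSeq GRCm38.p6. Coordinates were not converted, so the planned counts at gene starts and motifs in promoters were not run. Receptor genes were symbols beginning Olfr, Vmn1r or Vmn2r. Genes and places named were the members of fixed lists, the 5 fullest bins, all receptor-rich bins, long stretches without peaks, the 10 widest peaks and the 3 tightest runs. Genes inside stretches and bins that are in no list were chosen after their values were seen. The members and lists were chosen with earlier results of these data known. Bins and repeats were computed with Python 3.11.15, NumPy 2.4.6, pandas 2.3.3, SciPy 1.17.1 and numba 0.67.0, and tested on simulated data. Positions count from 1.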

Additional observations from a re-analysis of the deposited data

How the results depend on the processing

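No alternative turned the lower number of peaks in receptor-rich bins. Other-gene bins held 9.43 times as many peaks per 100 genes, and 3.1 to 34.2 times under 9 alternatives. Per 100 non-receptor genes the fold was 2.92, and without Gm symbols 2.21. Peaks per 100 genes in receptor-rich bins, 3.88, became 1.06 with bins of 1 Mb, 11.6 with bins of 5 Mb and 6.16 with 2 Mb bins moved by 1 Mb. They were 1.36 with 1 Mb bins and genes moved by 0.5 Mb and 1.07 with receptors at least 75% of the genes, both chosen after seeing the data. The corresponding folds were 32.0, 3.1, 5.71, 26.0 and 34.2. Bins of 5 Mb take in neighbouring genes by construction. The median of receptor-rich bins, 0.25 peaks per Mb, was 0 with bins of 1 Mb, with bins moved by 1 Mb and with 1 Mb bins and moved genes. It was 0.5 with genes moved by 0.5 Mb or with receptors at least 25%. With bins of 5 Mb it was 2.6, close to the 3 of other-gene bins, and 0 bins of either class were empty. At that width the medians thus hardly differed. With peaks at least as wide as the list's median, which by construction removes many, the chromosome had 273 peaks, receptor-rich bins 1.51 and other-gene bins 18.8 per 100 genes, with medians of 0 and 1.25 per Mb. Of 61 values under alternatives, 40 stayed within 1.5 times, and with peaks closer than 500 bases merged the chromosome had 487.

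No paired analysis was possible because each deposited interval stands for all libraries at once, and for that reason no replicate was left out. Binding weaker than what the authors reported is not in the list.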

Other observations

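Some bins held many peaks for few genes. Among bins with 5 or more protein-coding genes, the highest ratio was from 54 to 56 Mb, with 8 peaks for 5 genes. The bin from 62 to 64 Mb, which holds Klf13, came next with 14 peaks for 9 genes, followed by the bin from 112 to 114 Mb with 10 peaks for 11 genes. The gene-poor bin from 72 to 74 Mb held 8 peaks beside 4 genes, which are Mctp2, Rgma, the chromatin remodeller gene Chd2 and Fam174b. Whether any of these peaks lies at a gene start could not be read from GRCm38 positions.

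All 11 gene-poor bins together held 17 peaks, and 7 of them held 0. The first bin, which has 0 genes and no known sequence in GRCm38, is among both the 11 and the 7. With it included, gene-poor bins held 1.55 peaks per 2 Mb, against 1.8 in receptor-rich bins. Receptor-rich bins carry 464 protein-coding genes and gene-poor bins 23.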
